A study of Mus musculus with 15 samples.

Results

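Lung natural helper cells of mice given papain were compared with lung natural helper cells of naive mice. The comparison uses 4 of the 15 libraries of the series, 2 from papain mice and 2 from naive mice, chosen by their labels alone. Both groups came from C57BL6/J mice. Papain mice had been given 50 ug of papain into the nose on each of 3 days running, and the labels give naive mice no treatment. In both groups the cells were gated as lineage-negative cells carrying Thy1.2, IL7Ra and CD25. The ages of the mice, the number of mice behind a library and the antibodies of the lineage gate are not given in the sources used here. Another natural helper cell library, from papain mice and labelled 3'UTRKO, was left out of the comparison. The other 10 libraries hold 4 of basophils and 6 of eosinophils from the same kinds of mice, and they serve below to compare the papain response of natural helper cells with theirs. All 15 libraries entered the model, so the spread behind every p-value and the filter on low values also rest on the other cells.

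Natural helper cells are innate lymphocytes, now counted among the group 2 innate lymphoid cells. They carry no antigen receptor of their own and are switched on by alarm cytokines of the epithelium, chiefly IL-33, IL-25 and TSLP, together with growth signals through CD25 and IL7Ra. Once active they release IL-5, which recruits and sustains eosinophils, and IL-13, which drives mucus production and airway reactivity, and they also make amphiregulin, a growth factor of epithelial repair. Papain is a plant protease that injures airway epithelium and is widely used to set off this kind of lung inflammation without immunization.

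The libraries carried the transcripts that define the cell. Il5 was listed at 2379 and 2350 FPKM (fragments counted per length of transcript and size of the library) in papain cells, against 501 and 2283 FPKM in naive cells. Gata3, the master regulator of type 2 lymphocytes, had 201 and 229 FPKM in papain cells, against 168 and 273 FPKM in naive cells. Icos, a costimulatory receptor of these cells, had 215 and 238 FPKM in papain cells, against 100 and 201 FPKM in naive cells. In the 4 basophil and 6 eosinophil libraries Il5 reached at most 12 and 25 FPKM and Gata3 at most 7 and 3 FPKM, far below all 4 natural helper cell libraries. Icos was less exclusive, since a basophil library reached 114 FPKM, above the lower naive natural helper cell library. The summed level of the 15 natural helper cell markers was 5956 and 5824 FPKM in papain cells, against 2712 and 4900 FPKM in naive cells, and no marker was at 0 in any of the 4 libraries.

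Transcripts of other cell types were present in part. Basophil markers summed to 18 and 24 FPKM in papain cells, against 15 and 22 FPKM in naive cells, with 4 of 10 at 0 in all 4 libraries, among them Mcpt8, Fcer1a and Ms4a2, and with Hdc and Cpa3 above 4 FPKM in each. Eosinophil markers summed to 3 and 28 FPKM in papain cells, against 24 and 3 FPKM in naive cells, with 4 of 10 at 0 throughout, Epx and Prg3 among them, and Ear2, also an alveolar macrophage marker, at up to 21 FPKM. NK cell and ILC1 markers summed to 23 and 37 FPKM in papain cells, against 48 and 46 FPKM in naive cells, with Ncr1 at 0 throughout and Gzma and Nkg7 present. B cell markers summed to 6 and 17 FPKM in papain cells, against 4 and 2 FPKM in naive cells, with Ms4a1 and Pax5 at 0 throughout and Blk present. All 4 sums were small beside that of the natural helper cell markers. Epithelial markers summed to 750 and 2231 FPKM in papain cells, against 113 and 1859 FPKM in naive cells, and most of that was Scgb1a1, the club cell secretory protein, with 681 and 1921 FPKM in papain cells, against 87 and 1809 FPKM in naive cells. The first naive library stood apart in holding little of it. Alveolar macrophage markers summed to 102 and 912 FPKM in papain cells, against 99 and 4 FPKM in naive cells, so the second papain library held the most and the second naive library almost none. T cell markers summed to 162 and 198 FPKM in papain cells, against 260 and 264 FPKM in naive cells, and lymphatic endothelial markers to 111 and 96 FPKM in papain cells, against 222 and 174 FPKM in naive cells. Both sums were lower in every papain library than in any naive library. Much of the lymphatic difference lay in Ccl21a, with 11 and 15 FPKM in papain cells, against 103 and 102 FPKM in naive cells. Stab2 had 72 and 45 FPKM in papain cells, against 73 and 47 FPKM in naive cells. Of the 8 lymphatic markers 7 had a negative difference and 1, Pdpn, a positive one. Fibroblast markers summed to 596 and 823 FPKM in papain cells, against 537 and 414 FPKM in naive cells. Neutrophil markers summed to 14 and 120 FPKM in papain cells, against 172 and 21 FPKM in naive cells. Red blood cell markers summed to 69 and 108 FPKM in papain cells, against 421 and 14 FPKM in naive cells. Both of the last sums were highest in the first naive library. Since these are bulk samples, fewer cells of a type and less RNA per cell cannot be told apart.

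**Figure D1:**
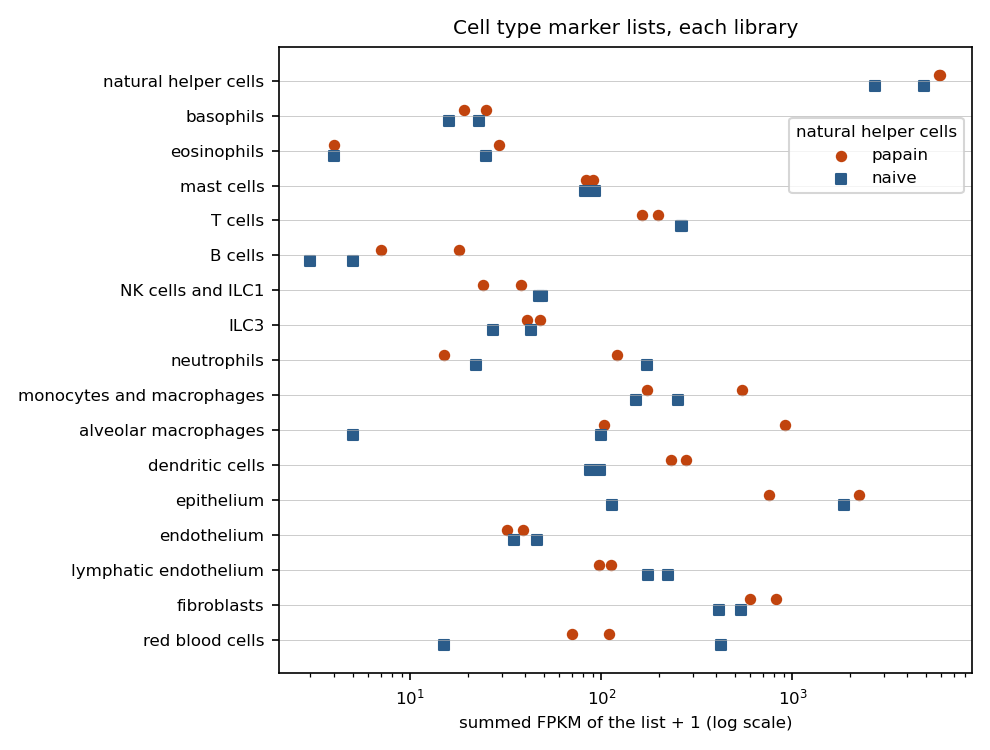
Summed FPKM plus 1 of 17 cell type marker lists on a log scale, with 2 papain libraries (circles) above 2 naive libraries (squares) in each row. The natural helper cell list stands highest in all 4 libraries, and the alveolar macrophage list reaches 912 FPKM in the second papain library.

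Every level here is a whole-number FPKM whose read depth is unknown, which leaves no way to put a counting interval on it. Agreement of replicates depended on the measure. Among 4566 genes with a mean of at least 10 FPKM over the 4 libraries, 2.65% differed by over 2-fold between the papain libraries and 6.04% between the naive libraries, against 11.1% to 17.17% between a papain and a naive library. The Pearson correlation across all 14257 genes tested, which are not independent replicates, was 0.961 for the papain libraries and 0.923 for the naive libraries. Between a papain and a naive library it was 0.916 to 0.928. Only the first papain library with the second naive library (0.928) exceeded the naive pair. Small RNA genes took 13.66% and 11.02% of the summed FPKM in papain cells, against 25.45% and 21.70% in naive cells. Genes of at least 10 FPKM lay higher in papain cells as a whole, with a median difference of 0.31 on the log2(FPKM + 1) scale and 72.1% of them positive, and with small RNA genes taken out the median was 0.28. Median-ratio scaling and quantile normalization bring that median to 0.02 and 0.03, and list medians below are to be read against this common shift. Over all 14257 genes tested the median was 0.09, with 53.96% of them positive.

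A linear model in limma on log2(FPKM + 1), with an adjusted p under 0.05, called 77 genes higher in papain cells (0.54% of the genes tested) and 35 lower (0.245%). Fitted on the 4 compared libraries alone, it called 350 higher and 192 lower, and 62 of these were among the calls over all 15 libraries. At an unadjusted p under 0.05 there were 1551. The total of 112 became 52 without the first papain library and 55 without the second. In many of these the change is small in absolute terms: 26 of the higher and 27 of the lower genes had a mean under 5 FPKM in their higher group, where values move in whole-number steps such as 0 and 1. Scaling turned the balance of calls, since median-ratio scaling left 20 higher and 32 lower, and quantile normalization 30 higher and 26 lower. A second, untested description was used beside the calls: a gene is named separated when every papain library lies at least 1 log2 unit above, or below, every naive library. By it, 470 genes were higher (3.3%) and 195 lower (1.37%) in papain cells. With 2 libraries a group, an exact permutation test of a single gene cannot give a two-sided p below 0.3333, so no such test was run. By the same count, libraries in random order would not overlap between groups in a share of 0.3333. Groups said below not to overlap, or to be apart, are therefore a description, and their share of all genes is not given here. The labels do not say whether the libraries came from separate mice, and the p-values then measure only the spread between these libraries, which may be technical.

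The largest called rise was in Il1r2, the decoy receptor that binds IL-1 without signalling. Its level was 66 and 68 FPKM in papain cells, against 6 and 2 FPKM in naive cells, a log2 difference of 3.89 ± 0.52 (SE, limma adjusted p = 0.0111). Dusp4, a phosphatase that switches off MAP kinases in the nucleus, had 68 and 75 FPKM in papain cells, against 5 and 6 FPKM in naive cells (3.48 ± 0.59, limma adjusted p = 0.0351). For both genes every papain library lay about an order of magnitude above every naive library. Stat3, the transcription factor downstream of IL-6 family cytokines and IL-21, had 153 and 172 FPKM in papain cells, against 52 and 45 FPKM in naive cells (1.72 ± 0.30, limma adjusted p = 0.0386). Lcp1, the actin-bundling protein L-plastin of leukocytes, had 165 and 168 FPKM in papain cells, against 54 and 49 FPKM in naive cells (1.68 ± 0.18, limma adjusted p = 0.0033). Serinc5, a membrane protein of the serine incorporator family, had 55 and 61 FPKM in papain cells, against 10 and 11 FPKM in naive cells (2.36 ± 0.24, limma adjusted p = 0.00223). Replicates of these 3 genes lay close together in both groups. Havcr2, which encodes the checkpoint receptor TIM-3, had 12 and 17 FPKM in papain cells, against 2 and 3 FPKM in naive cells (2.14 ± 0.38, limma adjusted p = 0.0468). Lgals3, the lectin galectin-3, had 71 and 115 FPKM in papain cells, against 28 and 13 FPKM in naive cells (2.18 ± 0.36, limma adjusted p = 0.031). Tnc, the matrix protein tenascin-C, had 8 and 16 FPKM in papain cells, against 1 FPKM in both naive libraries (2.63 ± 0.39, limma adjusted p = 0.0177). The groups did not overlap in any of these, though Lgals3 and Tnc varied within a group.

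The remaining large rises were in genes of varied function. Slc15a3, a lysosomal transporter of histidine and small peptides, had 56 and 58 FPKM in papain cells, against 10 FPKM in both naive libraries. Pcyt1a, the rate-limiting enzyme of phosphatidylcholine synthesis, had 31 and 36 FPKM in papain cells, against 7 and 8 FPKM in naive cells. Fam46a, a non-canonical poly(A) polymerase, had 85 and 106 FPKM in papain cells, against 19 and 33 FPKM in naive cells. Each of the 3 was separated between the groups. Endod1, a DNA/RNA non-specific endonuclease by its domain, had 48 and 56 FPKM in papain cells, against 5 and 6 FPKM in naive cells. Ttc39c, a tetratricopeptide repeat protein, had 85 and 84 FPKM in papain cells, against 6 and 15 FPKM in naive cells. Scyl2, a pseudokinase of clathrin-coated vesicles, had 22 and 29 FPKM in papain cells, against 8 and 6 FPKM in naive cells. Log2 differences of these 6 genes ran between 1.73 for Scyl2 and 3.03 for Endod1, with limma adjusted p between 0.00736 for Slc15a3 and 0.0365 for Fam46a. Pgam1, the last of the 15 largest rises, belongs to glycolysis and is given there.

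Calls of single genes often needed all 4 libraries. Lcp1 and Serinc5 kept theirs with any library left out, where the lone library of a group is taken to vary like the other groups. Dusp4, Endod1, Havcr2, Pcyt1a, Pgam1 and Stat3 lost theirs whichever library was left out, with limma adjusted p between 0.0916 and 0.381. Without the second papain library Il1r2 (0.0921), Fam46a (0.324), Lgals3 (0.284), Scyl2 (0.175), Slc15a3 (0.0773), Tnc (0.152) and Ttc39c (0.16) were lost as well. Without the first papain library the same was true of Il1r2 (0.0865), Fam46a (0.162), Lgals3 (0.0802), Scyl2 (0.0706), Slc15a3 (0.0706) and Ttc39c (0.153). Without the first naive library the losses were Fam46a (0.144), Slc15a3 (0.0514), Tnc (0.0936) and Ttc39c (0.0951), and without the second naive library Il1r2 (0.0577), Lgals3 (0.107), Scyl2 (0.0875) and Tnc (0.0823). The direction of none of these genes turned. Median-ratio scaling ended the calls of Endod1, Fam46a, Havcr2, Pcyt1a and Scyl2, with limma adjusted p between 0.0548 and 0.0875, and quantile normalization that of Fam46a (0.0565).

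**Figure D2:**
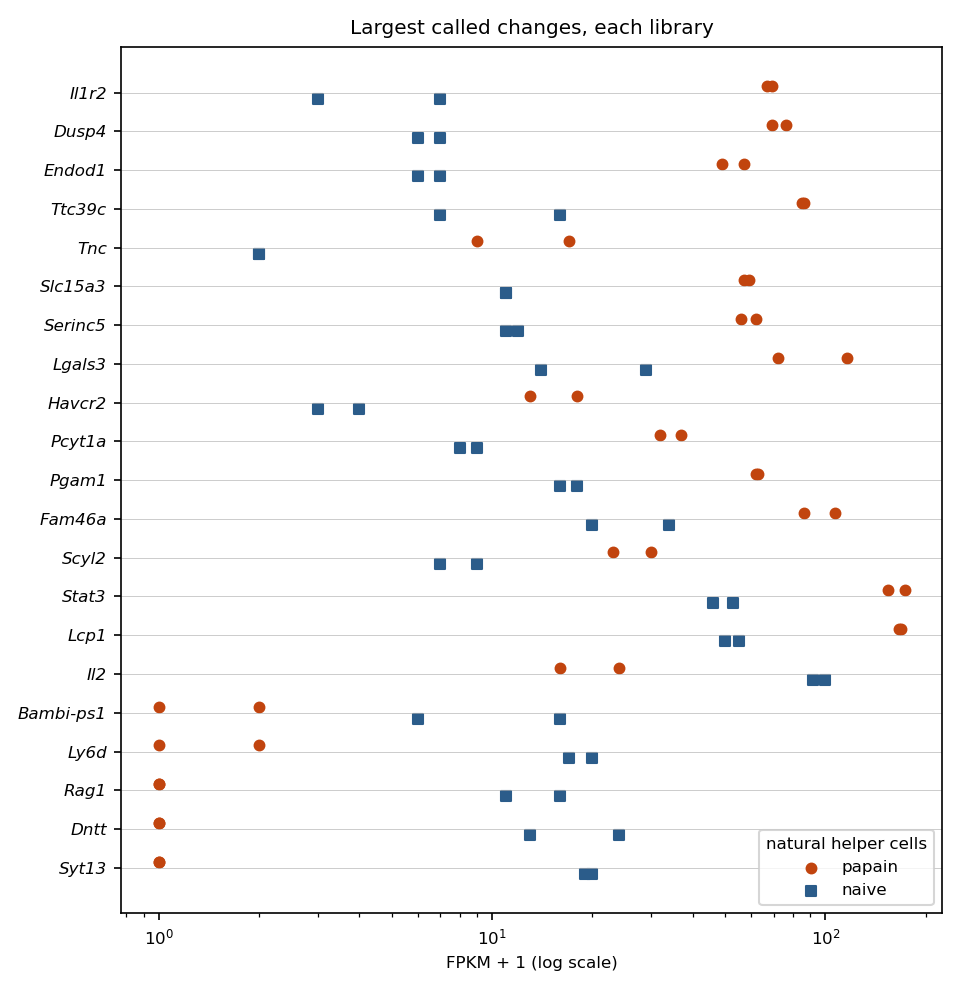
FPKM plus 1 on a log scale of the 15 largest called rises and the 6 largest called falls, with 2 papain libraries (circles) above 2 naive libraries (squares) for each gene. The groups do not overlap in any row, and Rag1, Dntt and Syt13 are at 0 in both papain libraries.

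Effector cytokines were already high before papain, and none of the 21 tested cytokine genes was called higher. Called lower was 1, Il2 (against 0.245% of all genes). The list's median log2 difference was 0.27, close to the common shift. Il13 was 407 and 377 FPKM in papain cells, against 93 and 218 FPKM in naive cells, a log2 difference of 1.45 ± 0.55 (limma adjusted p = 0.347). Its groups did not overlap. Nor did those of Il5, although the second naive library lay just under the papain libraries (1.14 ± 0.57, limma adjusted p = 0.518). The first naive library was the low one for both. Areg, which encodes amphiregulin, had 524 and 503 FPKM in papain cells, against 237 and 349 FPKM in naive cells (0.83 ± 0.76, limma adjusted p = 0.789). Il4 stayed at 20 and 24 FPKM in papain cells, against 19 and 25 FPKM in naive cells, and Il9, a cytokine that these cells can make, was at 2 and 4 FPKM in papain cells, against 1 and 2 FPKM in naive cells. The groups of Il4 and Il9 overlapped or touched. Il6 had 32 and 58 FPKM in papain cells, against 29 and 38 FPKM in naive cells. The neuropeptide gene Calca had 860 and 780 FPKM in papain cells, against 450 and 1438 FPKM in naive cells, so the naive libraries enclosed the papain ones.

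Another pair of cytokines leaned the other way. Il2, the growth factor of T cells that is read through CD25, had 23 and 15 FPKM in papain cells, against 91 and 99 FPKM in naive cells, and it fell by 2.29 ± 0.30 on the log2 scale (limma adjusted p = 0.0105). All papain values of Il2 were below all naive values by a wide margin. Its limma adjusted p was 0.0921 without the second papain library, 0.0514 without the first naive library and 0.0501 without the second naive library. Csf2, which encodes the myeloid growth factor GM-CSF, had 242 and 274 FPKM in papain cells, against 466 and 750 FPKM in naive cells (-1.20 ± 0.60, limma adjusted p = 0.53). The groups of Csf2 did not overlap, but the difference did not pass the test.

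Of 30 cytokine receptor genes tested, 2 were called higher (against 0.54% of all genes) and 4 were separated upwards (against 3.3%). None was called or separated downwards. The list median was 0.46, or 0.17 under median-ratio scaling and 0.28 without the second naive library. A positive difference was found in 23, against 53.96% of all genes and 72.1% of genes with a mean of at least 10 FPKM. The called pair was Il1r2 and Il13ra1, a chain of the IL-13 receptor, which had 2 FPKM in both papain libraries and was listed at 0 in both naive libraries; the call of Il13ra1 (limma adjusted p = 0.0419) rests on a whole-number step and was lost whichever library was left out, with limma adjusted p between 0.128 and 0.284, and under median-ratio scaling (0.0814) and quantile normalization (0.0944). Il18r1 and Il18rap encode the chains of the IL-18 receptor. Il18r1 had 49 and 46 FPKM in papain cells, against 22 and 10 FPKM in naive cells (1.61 ± 0.34, limma adjusted p = 0.0885). Il18rap had 92 and 67 FPKM in papain cells, against 29 and 27 FPKM in naive cells (1.46 ± 0.31, limma adjusted p = 0.0914). Both chains were separated, and both missed the threshold. Il1rl1, the IL-33 receptor ST2, had 436 and 492 FPKM in papain cells, against 244 and 288 FPKM in naive cells (0.80 ± 0.28, limma adjusted p = 0.30). Il2ra, the CD25 of the sort gate, had 228 and 213 FPKM in papain cells, against 85 and 128 FPKM in naive cells (1.07 ± 0.48, limma adjusted p = 0.463). No library of one group reached into the other for Il1rl1 or Il2ra. Il7r, the IL7Ra of the gate, had 193 and 151 FPKM in papain cells, against 221 and 177 FPKM in naive cells, and Il17rb, the IL-25 receptor, had 91 and 65 FPKM in papain cells, against 64 and 53 FPKM in naive cells. The groups of Il7r overlapped and those of Il17rb lay next to each other.

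**Figure D3:**
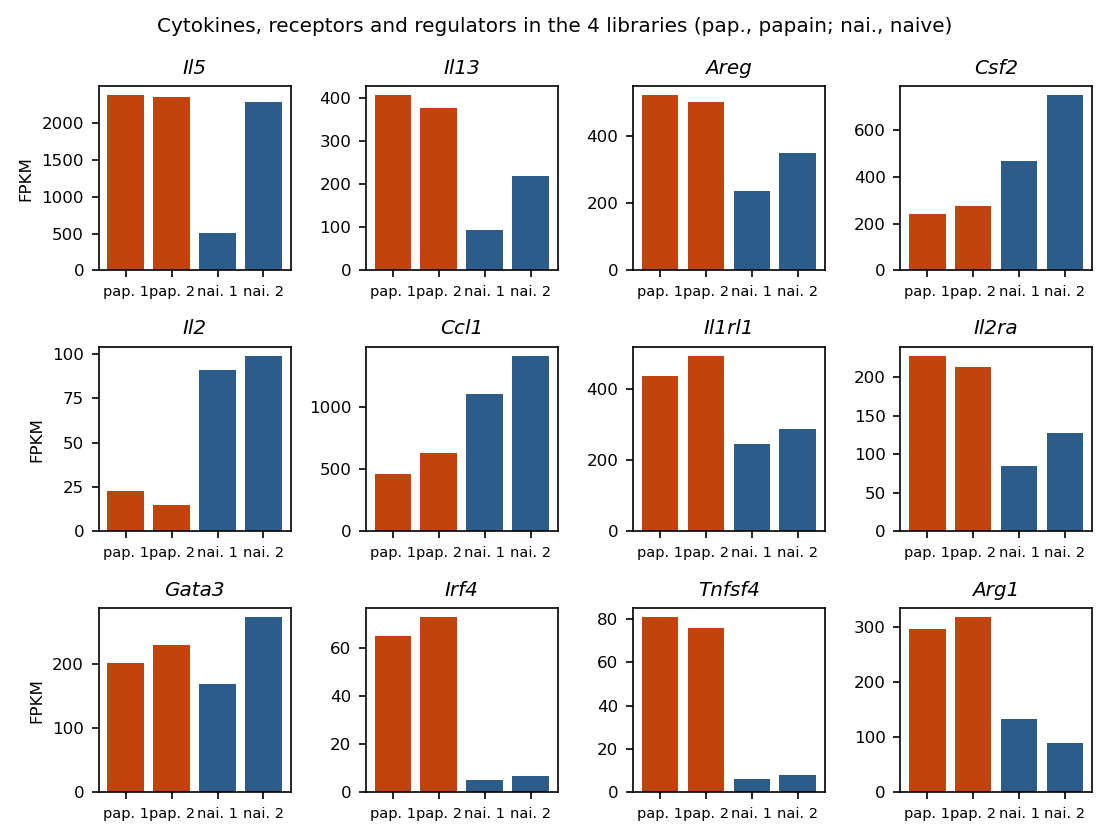
FPKM of 12 cytokine, receptor and regulator genes in each library, papain libraries (red) left of naive libraries (blue), each panel with its own axis from 0. Il5 differs more between the naive libraries than between groups, while Irf4 and Tnfsf4 lie between 65 and 81 FPKM in both papain libraries and between 5 and 8 FPKM in both naive libraries.

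Of 30 transcription factors of innate lymphocytes none was called, 2 were separated upwards (against 3.3% of all genes) and 1 downwards (against 1.37%). A positive difference was found in 20, against 53.96% of all genes and 72.1% of genes with a mean of at least 10 FPKM. The list median was 0.42, or 0.16 under median-ratio scaling. Rora, which these cells need to develop, had 200 and 184 FPKM in papain cells, against 158 and 115 FPKM in naive cells (0.51 ± 0.62). The largest difference of the list was in Irf4, a factor that antigen and cytokine signals induce in lymphocytes and that directs type 2 effector genes. Irf4 had 65 and 73 FPKM in papain cells, against 5 and 7 FPKM in naive cells (3.33 ± 0.68, limma adjusted p = 0.0784). Its papain libraries were far above its naive ones, and the difference missed the threshold. Zeb2, a repressor found in terminally differentiated lymphocytes, had 10 and 6 FPKM in papain cells, against 2 and 1 FPKM in naive cells (1.84 ± 0.39, limma adjusted p = 0.0877). Klf2, a factor of quiescence and recirculation in T cells, had 10 and 18 FPKM in papain cells, against 54 and 38 FPKM in naive cells (-1.68 ± 0.56, limma adjusted p = 0.281). It was the member separated downwards.

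Many costimulatory and checkpoint genes of the TNF and CD28 families lay higher in papain cells. Of 29 tested, 9 were separated upwards (against 3.3% of all genes) and 1 downwards (against 1.37%). The median was 0.67, and Havcr2 alone was called (against 0.54% of all genes called higher). Tnfsf4, the ligand OX40L through which these cells costimulate T cells, had 81 and 76 FPKM in papain cells, against 6 and 8 FPKM in naive cells (3.32 ± 0.62, limma adjusted p = 0.0539). Its receptor gene Tnfrsf4 had 41 and 52 FPKM in papain cells, against 7 and 9 FPKM in naive cells (2.40 ± 0.73, limma adjusted p = 0.244). Ligand and receptor thus stood at higher levels in the same libraries. Tigit, an inhibitory receptor, had 70 and 77 FPKM in papain cells, against 11 and 14 FPKM in naive cells (2.47 ± 0.95, limma adjusted p = 0.36). Pdcd1, the inhibitory receptor PD-1, had 328 and 309 FPKM in papain cells, against 66 and 150 FPKM in naive cells (1.67 ± 1.34, limma adjusted p = 0.748). Ctla4, another inhibitory receptor and chosen after its values were seen, had 45 and 72 FPKM in papain cells, against 13 and 11 FPKM in naive cells (2.16 ± 0.95, limma adjusted p = 0.46). All of these are also T cell genes. The sum of the 10 T cell markers was lower in papain cells, while 4 of them had a positive difference. The part of T cells was not tested. The groups did not overlap for any of these receptors. Tnfrsf18, the receptor GITR, had 323 and 324 FPKM in papain cells, against 291 and 382 FPKM in naive cells, and Klrg1, a marker of mature cells, had 72 and 58 FPKM in papain cells, against 33 and 43 FPKM in naive cells. Cd69, an early activation marker, was lower, with 67 and 77 FPKM in papain cells, against 192 and 131 FPKM in naive cells (-1.13 ± 0.37, limma adjusted p = 0.27).

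Of 22 early lymphoid genes tested, 4 were called lower (against 0.245% of all genes), 5 were separated downwards (against 1.37%) and none upwards. Both counts include Rag1 and Rag2, whose place followed from the filter as told below, so neither count tests the list. The list median was -0.19, and 0.00 without the first naive library. Rag1, an enzyme of antigen receptor gene rearrangement, was listed at 0 in both papain libraries, against 15 and 10 FPKM in naive cells. Rag2, its partner, was also listed at 0 in both papain libraries, against 2 and 3 FPKM in naive cells. Dntt, the polymerase that adds untemplated bases at the joins, was listed at 0 in both papain libraries, against 12 and 23 FPKM in naive cells (limma adjusted p = 0.0071). Ly6d, a surface marker of early B lineage cells, had 0 and 1 FPKM in papain cells, against 16 and 19 FPKM in naive cells (-3.70 ± 0.52, limma adjusted p = 0.0143). These 4 genes were listed at 0 or 1 in papain cells and were low in naive cells. A listed 0 is a rounded FPKM of unknown depth and does not show absence: Hmgcs1, a cholesterol synthesis enzyme that dividing cells use, was also listed at 0 in all 4 libraries. Rag1 and Rag2 passed the filter on low values only through the naive natural helper cell libraries, where they were high, so their calls had to follow and are given as a description. The limma adjusted p of Dntt was 0.0706 without the first papain library and 0.0709 without the second, and that of Ly6d was 0.129 without the first papain library, 0.0754 without the first naive library and 0.087 without the second. Rag1 and Rag2 were at 0 in all basophil and eosinophil libraries, while Ly6d ranged between 12 and 97 FPKM in basophils and between 7 and 32 FPKM in eosinophils.

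Other genes fell beside them. Syt13, a synaptotagmin of vesicle traffic, was listed at 0 in both papain libraries, against 19 and 18 FPKM in naive cells, and was at 0 in all 10 basophil and eosinophil libraries. It too passed the filter only through the naive natural helper cell libraries, so its call is a description. Bambi-ps1, a pseudogene of a TGF-beta pseudoreceptor, had 0 and 1 FPKM in papain cells, against 5 and 15 FPKM in naive cells (-2.79 ± 0.50, limma adjusted p = 0.0467), and reads of its near-identical parent gene could be counted there. Its limma adjusted p was 0.295 without the first papain library, 0.0907 without the second and 0.146 without the second naive library, and 0.059 under median-ratio scaling and 0.0678 under quantile normalization. Ccr9, a chemokine receptor of gut homing and of thymocytes, had 1 FPKM in both papain libraries, against 8 and 3 FPKM in naive cells, and was separated without a call. Cd8a, a T cell marker, had 3 and 5 FPKM in papain cells, against 16 and 17 FPKM in naive cells. Cd8b1, another, had 5 and 8 FPKM in papain cells, against 21 and 26 FPKM in naive cells. They were the 2 of 10 T cell markers separated downwards (against 1.37% of all genes). Of the 10 T cell markers 6 had a negative and 4 a positive difference. None was at 0 in any of the 4 libraries and none was called. Ccl21a, a chemokine of lymphatic and lymph node stroma, had 11 and 15 FPKM in papain cells, against 103 and 102 FPKM in naive cells (-2.90 ± 0.88, limma adjusted p = 0.239). The part of T cells or lymphatic tissue in the fall of the early lymphoid genes was not tested.

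Immediate early genes, which incoming signals switch on within minutes, leaned downwards. None of 24 was called, 2 were separated downwards (against 1.37% of all genes) and none upwards. A negative difference was found in 19, against 3943 of all 14257 genes tested. The list median was -0.54, against 0.09 over all genes tested. Fosb had 156 and 154 FPKM in papain cells, against 634 and 354 FPKM in naive cells (-1.61 ± 0.43, limma adjusted p = 0.165). Egr1 had 23 and 29 FPKM in papain cells, against 103 and 59 FPKM in naive cells (-1.56 ± 0.36, limma adjusted p = 0.111). Nr4a1, an orphan nuclear receptor induced by the same signals, had 467 and 536 FPKM in papain cells, against 744 and 794 FPKM in naive cells (-0.62 ± 0.21, limma adjusted p = 0.289). The groups of all 3 were apart without a call. The list median stayed negative under every alternative run, between -0.83 and -0.39. MAP kinase feedback genes did not follow: Dusp4 rose, while Dusp1 had 74 and 113 FPKM in papain cells, against 250 and 125 FPKM in naive cells, and Spry1 had 42 and 65 FPKM in papain cells, against 89 and 71 FPKM in naive cells. Of 18 feedback genes tested 1 was called higher (against 0.54% of all genes) and 2 were separated upwards (against 3.3%). The list median was 0.22, or -0.03 under median-ratio scaling.

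Cell cycle genes had the highest median of the 23 lists with all 4 libraries in. Without the first naive library it was 0.80, under the 0.95 of tissue repair and matrix effectors. Without the second naive library it was 0.87, under the 1.10 of the unfolded protein response list. None of the 37 cell cycle genes was called, 9 were separated upwards (against 3.3% of all genes) and none downwards. A positive difference was found in 34, against 53.96% of all genes and 72.1% of genes with a mean of at least 10 FPKM. The list median was 1.06. Mki67, the proliferation antigen Ki-67, had 23 and 17 FPKM in papain cells, against 4 and 5 FPKM in naive cells (1.92 ± 0.48, limma adjusted p = 0.14). Top2a, which untangles replicated chromosomes, had 34 and 22 FPKM in papain cells, against 4 and 8 FPKM in naive cells (2.08 ± 1.02, limma adjusted p = 0.513). Ccnb2, a mitotic cyclin, had 14 and 10 FPKM in papain cells, against 3 and 4 FPKM in naive cells (1.52 ± 0.63, limma adjusted p = 0.419). Mcm6, a subunit of the replicative helicase chosen after its values were seen, had 38 and 35 FPKM in papain cells, against 12 and 14 FPKM in naive cells (1.42 ± 0.61, limma adjusted p = 0.442). Replication and mitosis genes stood higher in the same libraries, at low to moderate levels, and at an adjusted p under 0.05 none was called. The list median was positive in every alternative run, at 0.56 or above. Pmaip1, the pro-apoptotic protein Noxa, was the 1 called member of 18 Bcl2 family genes (against 0.54% of all genes called higher). It had 13 and 16 FPKM in papain cells, against 5 and 4 FPKM in naive cells (1.49 ± 0.22, limma adjusted p = 0.0182). The call of Pmaip1 was lost whichever library was left out.

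Glycolysis held the most genes called higher of the 23 lists, 4 of 20 (against 0.54% of all genes). Separated upwards were 7 (against 3.3%) and downwards none, and the list median was 0.76. Glycolysis turns glucose into pyruvate and lactate, and activated lymphocytes are known to raise it. Slc2a1, the glucose transporter GLUT1, had 29 and 30 FPKM in papain cells, against 14 and 11 FPKM in naive cells (1.18 ± 0.18, limma adjusted p = 0.0206). Pgam1, phosphoglycerate mutase, had 62 and 61 FPKM in papain cells, against 15 and 17 FPKM in naive cells (1.88 ± 0.30, limma adjusted p = 0.0256). Eno1, enolase, had 100 and 107 FPKM in papain cells, against 38 and 43 FPKM in naive cells (1.33 ± 0.16, limma adjusted p = 0.00487). Transport of glucose and the lower steps of the pathway were thus represented among the calls. Pkm2, pyruvate kinase, had 199 and 225 FPKM in papain cells, against 89 and 93 FPKM in naive cells (1.21 ± 0.15, limma adjusted p = 0.00642). Tpi1 (limma adjusted p = 0.0545) and Pgk1 (limma adjusted p = 0.0539) were separated and just outside the threshold, Tpi1 with 45 and 42 FPKM in papain cells, against 11 and 17 FPKM in naive cells, and Pgk1 with 153 and 164 FPKM in papain cells, against 52 and 76 FPKM in naive cells. Ldha, lactate dehydrogenase, had 489 and 544 FPKM in papain cells, against 224 and 406 FPKM in naive cells (0.77 ± 0.26, limma adjusted p = 0.295). Eno1 lost its call without the second papain library (limma adjusted p = 0.057), and so did Pkm2 (0.0709); Slc2a1 lost its call without the first papain library (0.144), the second papain library (0.175) and the second naive library (0.0874), and Pgam1 whichever library was left out (0.0916 to 0.191). Median-ratio scaling ended the calls of Slc2a1 (0.0964) and Pkm2 (0.233) and brought the list median to 0.47, and quantile normalization ended that of Pkm2 (0.0914). Pdk1 and Pfkfb3, regulators of pyruvate entry and of phosphofructokinase chosen after their values were seen, had log2 differences of -0.54 and -0.35 and were not called. Hif1a, the subunit of the hypoxia factor that drives many of these genes and chosen after its values were seen, had 94 and 84 FPKM in papain cells, against 40 and 47 FPKM in naive cells (1.02 ± 0.16, limma adjusted p = 0.0206). Its limma adjusted p was 0.181 without the first papain library, 0.0943 without the second, 0.10 without the first naive library, 0.34 under median-ratio scaling and 0.143 under quantile normalization.

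Promoters of the glycolysis genes are shown for the core letters of the hypoxia response element, ACGTG, read on both strands. RefSeq windows of mouse build GRCm38.p6, spanning 250 bases before to 50 bases after each gene's start, were matched by symbol or older symbol for 19 of the 20 list members. The core was in 13 of the 19 (68.4%), against 21.8% of all 27025 genes. The stretches below lie upstream of the start and carry the matches in capitals, where CACGT is the same core on the other strand and the letters CACGTG of an E-box also hold it.
Pgk1, chrX:106186930-106186993, plus strand: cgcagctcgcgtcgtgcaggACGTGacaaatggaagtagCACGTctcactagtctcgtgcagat
Pgam1, chr19:41911737-41911781, plus strand: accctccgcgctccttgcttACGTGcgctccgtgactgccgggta
Pkm (Pkm2 in the table), chr9:59657132-59657176, plus strand: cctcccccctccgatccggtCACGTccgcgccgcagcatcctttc
Slc2a1, chr4:119108689-119108733, plus strand: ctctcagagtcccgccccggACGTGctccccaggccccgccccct
The 13 members with the core had a median log2 difference of 0.79, and the 6 without it a median of 0.71, and both medians lay close together.

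Genes of the unfolded protein response, by which a cell enlarges its folding capacity in the endoplasmic reticulum when secretion is heavy, lay mostly higher in papain cells without a call. Of 24 tested, 19 had a positive difference (against 53.96% of all genes and 72.1% of genes with a mean of at least 10 FPKM). Separated upwards were 4 (against 3.3%) and downwards none, and the median was 0.86. Creld2, a folding factor of the reticulum, had 22 and 30 FPKM in papain cells, against 10 FPKM in both naive libraries (1.28 ± 0.26, limma adjusted p = 0.0792). Hspa5, the main chaperone BiP, had 297 and 470 FPKM in papain cells, against 176 and 238 FPKM in naive cells (0.87 ± 0.25, limma adjusted p = 0.217). Sdf2l1, a partner of BiP, had 21 and 29 FPKM in papain cells, against 8 and 7 FPKM in naive cells (1.60 ± 0.98, limma adjusted p = 0.64). The second papain library was the higher one for all 3. Canx and Calr, the lectin chaperones calnexin and calreticulin, were chosen after their values were seen. Canx had 77 and 96 FPKM in papain cells, against 36 FPKM in both naive libraries (1.23 ± 0.30, limma adjusted p = 0.139), and Calr had 200 and 270 FPKM in papain cells, against 92 and 119 FPKM in naive cells (1.14 ± 0.38, limma adjusted p = 0.281). Ddit3 and Atf4 of the PERK branch were also chosen after their values were seen. Ddit3, the pro-apoptotic factor CHOP, had 11 and 14 FPKM in papain cells, against 17 and 19 FPKM in naive cells, and Atf4 had 133 and 135 FPKM in papain cells, against 131 and 194 FPKM in naive cells. The 4 separated members were Canx, Creld2, Hyou1 and Sdf2l1. The 4 members with a negative difference were Atf4, Ddit3, Dnajb9 and Trib3, the last 2 named for their sign.

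Windows of the same kind were searched for the endoplasmic reticulum stress element, the letters CCAAT, a spacer of 9 bases and CCACG, on both strands. It was present in 7 of the 20 list members that had a window (35.0%), against 0.137% of all 27025 genes. Hyou1 and Sdf2l1 were not among the 7. Each stretch shows the element and its spacer in capitals.
Hspa5, chr2:34772005-34772063, plus strand: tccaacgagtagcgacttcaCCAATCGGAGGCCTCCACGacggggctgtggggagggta
Canx, chr11:50325780-50325838, minus strand: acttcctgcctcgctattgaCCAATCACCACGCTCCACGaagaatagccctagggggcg
Calr, chr8:84847055-84847113, minus strand: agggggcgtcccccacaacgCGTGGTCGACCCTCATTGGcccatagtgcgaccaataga
Creld2, chr15:88819500-88819558, plus strand: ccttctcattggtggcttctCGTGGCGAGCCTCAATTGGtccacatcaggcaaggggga
In Hspa5 and Canx the element reads in the direction of the gene, and in Calr and Creld2 it reads on the opposite strand. The 7 members with the element (with Dnajc3, Hsp90b1 and Pdia6, named for the match) had log2 differences between 0.87 and 1.28, all positive, with a median of 1.14. The 13 without it had differences between -0.50 and 1.60, with a median of 0.38, and 8 of them were positive. This is a description of a list chosen with results of these data known. The same search for the CArG box in the immediate early genes found it in 2 of 19 (10.5%), against 1.81% of all genes.

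Chemokine genes had a median of 0.95, with 0 of 21 called, 5 separated upwards (against 3.3% of all genes) and 6 with a negative difference. The median was 0.42 without the second papain library, the one with the most macrophage transcripts. Ccl1, a chemokine ligand for Ccr8, had the lowest difference, with 457 and 625 FPKM in papain cells, against 1100 and 1408 FPKM in naive cells (-1.22 ± 0.57, limma adjusted p = 0.49). Ccl2, which recruits monocytes, had 299 and 334 FPKM in papain cells, against 122 and 138 FPKM in naive cells (1.28 ± 0.80, limma adjusted p = 0.653). Xcl1, which recruits cross-presenting dendritic cells, had 12 and 17 FPKM in papain cells, against 3 FPKM in both naive libraries (1.94 ± 0.92, limma adjusted p = 0.501). The groups of all 3 were apart, in opposite directions for Ccl1. Ccl17 had 4 and 18 FPKM in papain cells, against 0 and 1 FPKM in naive cells, and Ccl8 had 1 and 8 FPKM in papain cells, against 0 FPKM in both naive libraries. Both lay highest in the second papain library, which also held the most macrophage transcripts. Among 21 homing receptors tested none was called and 1, Ccr9, was separated downwards (against 1.37% of all genes). Ccr8 had 341 and 334 FPKM in papain cells, against 291 and 309 FPKM in naive cells. Cxcr6 had 256 and 184 FPKM in papain cells, against 121 and 242 FPKM in naive cells.

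Adhesion genes followed a similar course, with 0 of 24 called, 5 separated upwards (against 3.3% of all genes) and a median of 0.49. Itgae, the integrin chain CD103 that binds E-cadherin of epithelium, had 17 and 19 FPKM in papain cells, against 3 and 1 FPKM in naive cells (2.75 ± 0.91, limma adjusted p = 0.281). Itgav, a chain of the matrix and TGF-beta binding integrins, had 105 and 107 FPKM in papain cells, against 28 and 39 FPKM in naive cells (1.65 ± 0.55, limma adjusted p = 0.281). Neither overlapped between groups. In the list of tissue repair and matrix effectors, 2 of 32 genes, Tnc and Lgals3, were called higher (against 0.54% of all genes). Separated upwards were 8 (against 3.3% of all genes) and downwards none. The median was 0.92, and 0.60 without the second papain library; the list holds genes that macrophages also express, such as Chi3l3, Retnla and Lgals3, which were highest in that library. Anxa2, a membrane-binding protein that promotes plasmin formation, had 179 and 192 FPKM in papain cells, against 64 and 67 FPKM in naive cells (1.49 ± 0.27, limma adjusted p = 0.051). Arg1, the arginase that supports metabolism of these cells in the lung, had 297 and 319 FPKM in papain cells, against 133 and 90 FPKM in naive cells (1.48 ± 1.02, limma adjusted p = 0.695). Timp1, an inhibitor of matrix proteases, had 18 and 37 FPKM in papain cells, against 2 and 8 FPKM in naive cells (2.37 ± 0.85, limma adjusted p = 0.324). These 3 were apart between the groups. Mmp10, a matrix protease outside every list and chosen after its values were seen, had 11 and 7 FPKM in papain cells and was listed at 0 in both naive libraries (limma adjusted p = 0.000707).

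Some of the largest differences were in genes that macrophages express strongly. Retnla, a secreted protein of alternatively activated macrophages, had 98 and 261 FPKM in papain cells, against 1 and 4 FPKM in naive cells (5.67 ± 1.57, limma adjusted p = 0.189). Chi3l3, another such protein, had 94 and 823 FPKM in papain cells, against 66 and 3 FPKM in naive cells (4.10 ± 1.99, limma adjusted p = 0.512). Lyz2, the macrophage lysozyme, had 60 and 343 FPKM in papain cells, against 78 and 5 FPKM in naive cells. Chi3l3 and Lyz2 overlapped between the groups and were highest in the second papain library, whereas Retnla was separated in both papain libraries. Monocyte and macrophage markers summed to 172 and 544 FPKM in papain cells, against 251 and 151 FPKM in naive cells. Of these 13 markers 3 were separated upwards (against 3.3% of all genes). They were C1qa, C1qb and C1qc, each at 1 FPKM in the first papain library, and Fcgr1 was at 0 in all 4 libraries. The MHC class II genes, which present antigen in macrophages and dendritic cells and are also known in group 2 innate lymphoid cells, were higher in both papain libraries. H2-Ab1 had 66 and 72 FPKM in papain cells, against 12 and 7 FPKM in naive cells (2.78 ± 0.90, limma adjusted p = 0.27), and H2-Aa had 69 and 83 FPKM in papain cells, against 17 and 8 FPKM in naive cells (2.59 ± 0.94, limma adjusted p = 0.327). Their papain libraries lay close to each other, unlike those of Lyz2 and Chi3l3. Dendritic cell markers, which include both genes, summed to 231 and 276 FPKM in papain cells, against 86 and 97 FPKM in naive cells, and 3 of 10, Clec9a, Cd209a and Siglech, were at 0 in all 4 libraries. The part of other cells in these differences was not tested.

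Smaller lists gave few calls, to be read beside the 0.54% of all genes called higher and the 0.245% called lower. Acsl4, which activates arachidonic acid, was the called member of 25 lipid genes, with 69 and 70 FPKM in papain cells, against 24 and 26 FPKM in naive cells (1.44 ± 0.20, limma adjusted p = 0.0118); the limma adjusted p was 0.0938 without the first papain library, 0.104 without the second, 0.0741 without the first naive library and 0.102 under median-ratio scaling. Ptgs2, the inducible cyclooxygenase that acts on the same fatty acid, had 69 and 93 FPKM in papain cells, against 21 and 31 FPKM in naive cells (1.61 ± 0.48, limma adjusted p = 0.224). Cysltr2, a leukotriene receptor, had 39 and 37 FPKM in papain cells, against 13 and 6 FPKM in naive cells (1.98 ± 0.92, limma adjusted p = 0.489). Both were separated, and of 21 eicosanoid genes tested 3 were separated upwards (against 3.3% of all genes) and none was called. Slc15a3 was the called member of 21 nutrient transporters, a list with a median of 0.50. Oxidative phosphorylation genes had a median of 0.39 with 0 of 29 called or separated, which is near the common shift, and 0.10 under median-ratio scaling. Neuropeptide and hormone receptors had a median of 0.50 with 0 of 14 called, STAT5 targets 0.00 with 0 of 18, interferon response genes 0.04 with 0 of 27, and T cell receptor signalling genes -0.21 with 0 of 28. The interferon list turned to -0.07 under median-ratio scaling, and the T cell receptor signalling list to 0.07 without the first naive library. Actb, the cytoskeletal actin often used as a control gene and chosen after its values were seen, had 888 and 881 FPKM in papain cells, against 362 and 364 FPKM in naive cells (1.28 ± 0.19, limma adjusted p = 0.0171); its call was lost with any library left out (0.0578 to 0.139) and under median-ratio scaling (0.344) and quantile normalization (0.081).

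**Figure D4:**
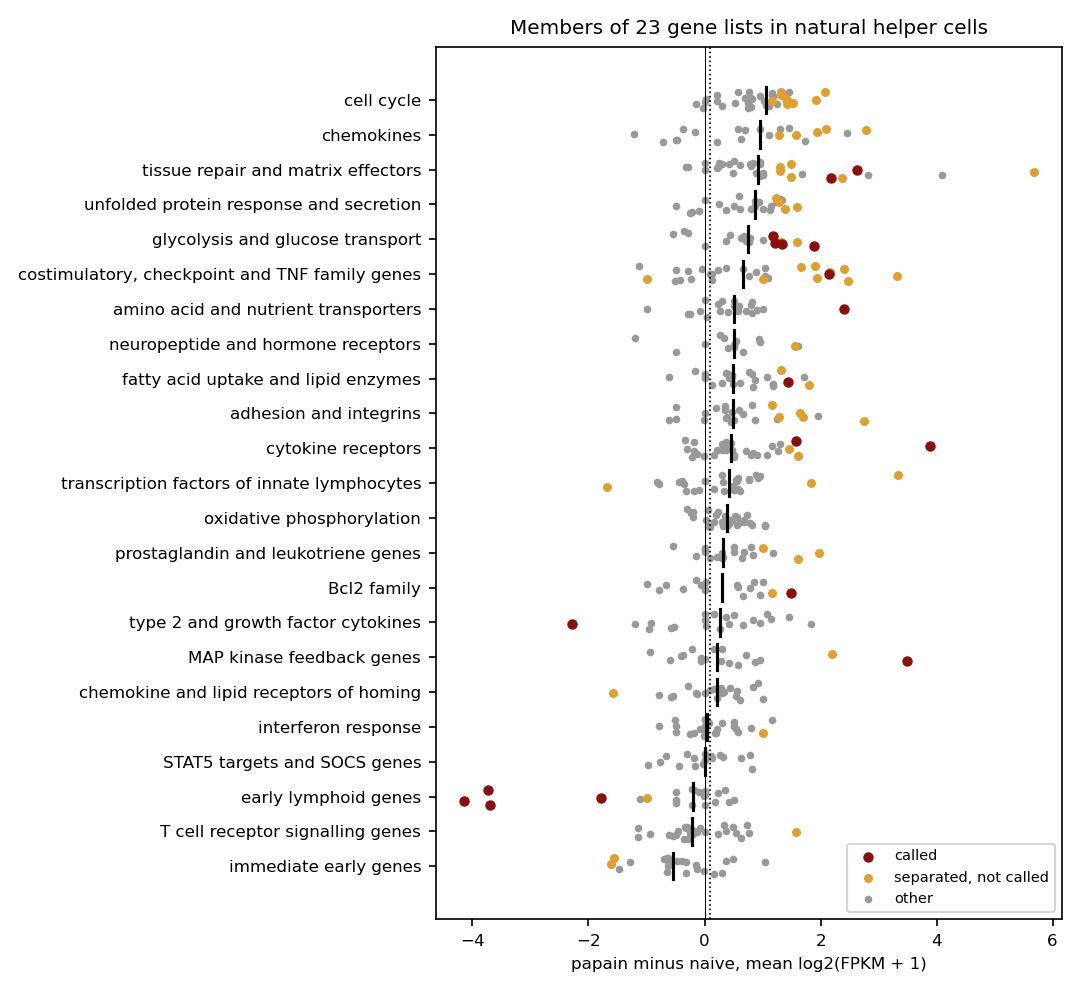
Difference of mean log2(FPKM + 1), papain minus naive, for each tested member of 23 gene lists, ordered by the list median (black bar); red points are called, orange points are separated without a call, and the dotted line is the median of all 14257 genes. Cell cycle, chemokine, tissue repair and unfolded protein response lists lie furthest right, and immediate early genes furthest left.

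The response was then set against that of the other cells in the same model, as the papain difference in natural helper cells minus the papain difference in another cell type. It differed from basophils in 963 genes (6.75%; 302 with a higher and 661 with a lower value in natural helper cells) and from CD11c-negative eosinophils in 172 genes (1.21%; 87 higher and 85 lower). Markers of other cells also differed within those cell types. The fibroblast marker Dcn had 171 and 135 FPKM in papain basophils, against 6 and 1 FPKM in naive basophils. In CD11c-negative papain eosinophils it had 137 and 99 FPKM, against 1 FPKM in both naive eosinophil libraries. The part of other cells in these responses, here and below, was not tested. Genes described here were chosen for their change in natural helper cells, which each difference of responses contains, so how many of them differ shows nothing particular. Without the first papain library the eosinophil comparison gave 12 genes and without the second 15. The basophil comparison gave 288 genes without the first papain library, 426 without the second and 504 without the first naive library, and its split became 517 higher and 388 lower under quantile normalization. Lcp1 moved in opposite directions: its papain difference was 1.68 in natural helper cells, -1.01 in basophils and -1.07 in CD11c-negative eosinophils, and it differed from both (limma adjusted p = 0.00197 and 0.00403). Il1r2 differed from both as well, by 4.39 ± 0.74 from basophils (limma adjusted p = 0.0116) and by 4.40 ± 0.74 from eosinophils (limma adjusted p = 0.0325). Il1r2 was at 54 to 100 FPKM in basophils and 77 to 275 FPKM in eosinophils, so papain natural helper cells reached the basophil range and naive ones lay far under it.

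Other genes had papain differences of the same sign in other cells, which were not tested on their own. Tnc had a papain difference of 2.63 in natural helper cells, 4.73 in basophils and 3.31 in CD11c-negative eosinophils. Pgam1 had 1.88 in natural helper cells, 2.19 in basophils and 1.19 in eosinophils, and its differences between cell types were -0.30 ± 0.42 and 0.69 ± 0.42 (limma adjusted p = 0.713 and 0.65). Il2 had -2.29 in natural helper cells and -2.40 in basophils, where it was at 6 FPKM at most. Endod1 and Stat3 showed no called difference between cell types either, which does not show that they respond alike. Some uncalled genes of natural helper cells did differ from basophils: Il18rap by 4.75 (limma adjusted p = 0.00181), Il1rl1 by 2.33 (limma adjusted p = 0.0115), Il13 by 3.79 (limma adjusted p = 0.0242) and Irf4 by 4.15 (limma adjusted p = 0.04). In natural helper cells alone these 4 had papain differences of 1.46, 0.80, 1.45 and 3.33, in that order. Each lies below its contrast, so the papain difference of basophils was negative for all 4. None of these 4 differed from CD11c-negative eosinophils at the same threshold.

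**Figure D5:**
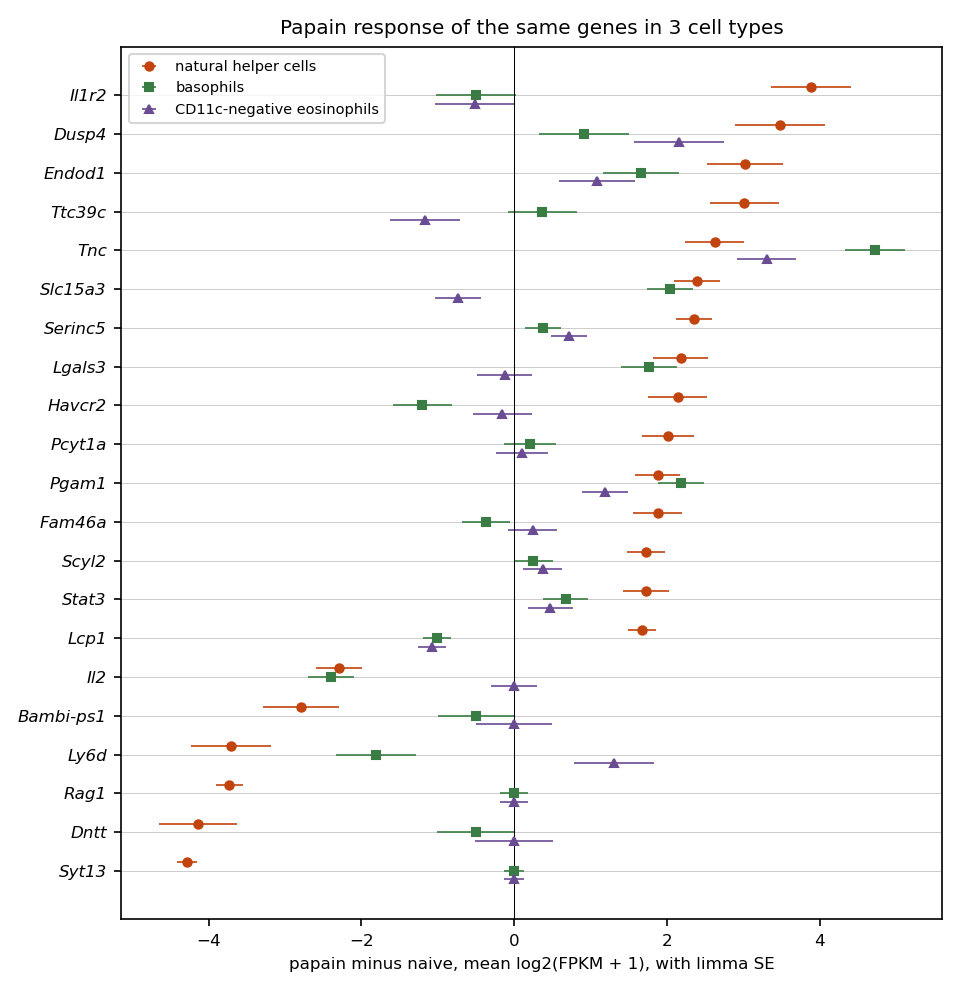
Papain minus naive difference of mean log2(FPKM + 1), with limma standard errors, for the 21 genes with the largest called changes, in natural helper cells (circles), basophils (squares) and CD11c-negative eosinophils (triangles). Lcp1 lies right of 0 in natural helper cells and left of 0 in both other cell types, while Tnc and Pgam1 lie right of 0 in all 3.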

How the data were processed

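Poly(A) RNA of sorted lung cells was sequenced, per the labels' protocols, and the submitters' processing notes list TopHat 1.4.0, Cufflinks 1.3.0 and mm9. Each score in the deposited table belongs to a gene symbol and a library and is read here as FPKM that the authors rounded to whole numbers; its header states no unit, and annotation, filters and depth are not given in the sources used here. Digit-grouping commas were removed. The 14257 of 21110 genes that reached 1 FPKM in 2 or more of the 15 libraries were tested as log2(FPKM + 1) in limma 3.58.1 (R 4.3.3): a coefficient per group over all libraries, eBayes with trend (7 residual and 1.87 prior degrees of freedom), two-sided tests and Benjamini-Hochberg adjustment, threshold 0.05. Some genes did not vary within groups, which makes their p-values small. The steps were tested on simulated data. Differences of responses were contrasts in the same model. Alternatives changed the pseudocount, filter, scaling, libraries, eBayes settings and replicate block, and left out each library. Gene lists, members and naming rules were chosen with earlier results of these data known. The text names the 15 largest rises and falls with a mean of 10 FPKM in the higher group and no overlap, called list members, uncalled list members with the highest levels or largest separated differences, fixed genes, cell type markers, and genes said to be chosen after their values were seen. Promoters came from RefSeq (GRCm38.p6), another build than mm9.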

Additional observations from a re-analysis of the deposited data

Results flagged for a closer look

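For some of the 21 genes with the largest called changes, the papain response of natural helper cells differed from that of another cell type, by a contrast of the responses in limma adjusted over all genes. The genes were chosen for their change in natural helper cells, which each contrast contains, so their number shows nothing; over all genes 6.75% differed from basophils and 1.21% from eosinophils. Against basophils, Lcp1 differed by 2.69 ± 0.26 (adjusted p = 0.00197), Havcr2 by 3.35 ± 0.54 (adjusted p = 0.0102), Il1r2 by 4.39 ± 0.74 (adjusted p = 0.0116) and Serinc5 by 1.98 ± 0.33 (adjusted p = 0.0118). Smaller margins to the threshold were found for Fam46a, at 2.25 ± 0.45 (adjusted p = 0.0224), Ttc39c, at 2.65 ± 0.64 (adjusted p = 0.0454), and Scyl2, at 1.47 ± 0.36 (adjusted p = 0.0454). All of these were higher in natural helper cells relative to basophils. Against CD11c-negative eosinophils, Lcp1 differed by 2.75 ± 0.26 (adjusted p = 0.00403), Slc15a3 by 3.14 ± 0.42 (adjusted p = 0.0168), Ttc39c by 4.18 ± 0.64 (adjusted p = 0.0225) and Il1r2 by 4.40 ± 0.74 (adjusted p = 0.0325). Ly6d differed from eosinophils by -5.02 ± 0.74 (adjusted p = 0.0192). For Il2 the contrast was -2.29 ± 0.43 (adjusted p = 0.0467), but Il2 was at 0 in all 6 eosinophil libraries, so it restates the fall in natural helper cells.

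For genes at or near 0 in the other cells the contrast also restates the fall in natural helper cells and cannot show a different response. Syt13 and Rag1 were at 0 in all 10 basophil and eosinophil libraries, with adjusted p of 1.41e-05 and 0.00027 against basophils and of 2.11e-05 and 0.00036 against CD11c-negative eosinophils. Dntt was at 2 FPKM at most there, with adjusted p of 0.0214 against basophils and 0.0373 against CD11c-negative eosinophils.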

How the results depend on the processing

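Papain against naive natural helper cells gave 112 called genes. The count was 35 with a filter of 5 FPKM, 52 under median-ratio scaling (20 higher), 56 under quantile normalization (30 higher), 51 with robust eBayes and 542 when only the groups compared were fitted; it lay between 52 and 126 with a library left out, where the lone library is taken to vary like the other groups. The difference from basophils (963 genes) became 619 with the 5 FPKM filter and 570 with only the groups compared, and 288 to 653 with a library left out. The difference from CD11c-negative eosinophils (172 genes) became 95 with the 5 FPKM filter, 53 without trend, 81 under median-ratio scaling, 76 under quantile normalization, 114 with a pseudocount of 5, 106 with robust eBayes, 93 with small RNA genes removed, 819 with only the groups compared, and 12 to 152 with a library left out. Apart from the replicate block, given below, counts under the other alternatives were within 1.5 times. Of the 112 genes, 62 were among the 542 called when only the groups compared were fitted. No named gene that was called turned its direction. Of the 28 called genes in the lists or with the largest changes, 10 lost the call under median-ratio scaling, 4 under quantile normalization, 9 with a replicate block over all libraries and 27 with that block and only the groups compared; the cause was not tested.

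With the replicate number as a block, 78 genes were called over all libraries, 77 of them among the 112, and 226 with only the groups compared, 35 of them among the 112. The block gave 677 and 361 genes for the difference from basophils, and 105 and 571 for that from eosinophils. The samples share only a number: deviations of same-numbered libraries from their group means had a correlation of -0.0768.

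Whole-number values, 2 libraries a group and unknown depth limit what can be called, most of all under 5 FPKM. Genes that do not vary within groups get small p-values from rounding.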
